A study of Homo sapiens with 30 samples.

Results

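The mitosis and spindle genes are 43 genes whose products bring a cell into mitosis, attach its chromosomes to the spindle and divide it. Each gene was represented by 1 array probe, the one with the highest mean log2 value over all arrays, and together they make up 43 of the 20625 features measured in either cell line. The list covers 7 genes of entry into mitosis, 6 mitotic kinase subunits and partners, 5 of the spindle checkpoint, 6 of the kinetochore and centromere, 10 of spindle and chromosome structure, 4 of anaphase and 5 of cytokinesis.

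RNA was measured on 30 Illumina bead arrays from 2 human cell lines, TMD8 and U2932, which derive from diffuse large B cell lymphoma of the activated B cell-like type. The series asks which genes are modulated by YK-4-279, a small molecule made to inhibit transcription factors of the ETS family. YK-4-279 has a single stereocentre and exists as an S and an R enantiomer, mirror images of each other, and the labels' treatment names YK-S and YK-R are read here as these enantiomers, which the labels do not spell out. TMD8 was sampled 4 h and 8 h after YK-S or YK-R, with no solvent group among the samples analysed here, and U2932 at 4 h and 8 h after YK-S, YK-R or the solvent DMSO. This gives 4 groups in TMD8 and 6 in U2932, each of 3 arrays. Doses are not given in the labels, so a difference between YK-S and YK-R is between the treatments as applied. Each line stands for 1 patient's tumour, and whether the 3 arrays of each group hold separate cultures is not said, so the tests measure a spread between arrays that may be technical.

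Transcripts of these genes accumulate late in the cell cycle. Earlier in the cycle and in resting cells they are held down by the DREAM complex, which contacts a short promoter element called the CHR, and they are switched on by B-MYB and FOXM1 together with NF-Y, which binds CCAAT boxes. Their level in a lymphoma line is therefore commonly read as a proliferation signature. In RNA from a whole culture, fewer cells in late cell cycle cannot be told apart from less of the RNA in each such cell.

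All 43 genes lay above background on all 12 TMD8 arrays. In U2932, 41 did so on all 18 arrays, while FOXM1 did so on 17 and ANLN on 12. The arrays differed in brightness. Mean signal was 419.6 to 494.1 on the TMD8 arrays and 85.4 to 340.9 on the U2932 arrays, with 46.6% to 56.1% and 25.2% to 50.5% of probes above background. Of the U2932 arrays, 8 had a mean signal under 200, and these are called dim below. The array names also disagreed within the deposit. The 18 U2932 arrays of the signal table were found again in the table of normalized values under other names, 5 within the same group and 13 in another group, whereas all 12 TMD8 arrays kept their names. Results for U2932 are therefore given by the signal table's naming first and by that of the value table second, and neither naming can be preferred from the files. Both namings cover the same 18 arrays, so a result shared by both is not separate support. Of the B cell markers, MS4A1, CD79A, CD79B and CD22 were above background on every array of both lines. PAX5 was above background on 8 of 12 TMD8 arrays and on none of the 18 U2932 arrays. EPCAM, an epithelial marker, was above background on all 18 U2932 arrays, with a mean log2 level of 9.21 against 4.78 in TMD8, and CD14, a myeloid marker, on 16 of 18 U2932 and all 12 TMD8 arrays (5.91 and 4.92). The other myeloid markers were above background on 2 TMD8 and 10 U2932 arrays (LYZ), 2 and 3 (CSF1R), 0 and 1 (ITGAM), and 4 and 1 (FCN1). Of the T cell markers, CD2 was above background on 11 TMD8 and 4 U2932 arrays (mean log2 levels of 4.84 and 4.65) and CD8A on 8 and 5 (4.56 and 4.57), while CD3E was so on 2 and 2, CD3G on 2 and 0, and CD3D on 0 and 2. Of the other stromal, endothelial and epithelial markers, COL1A1 and PECAM1 were above background on 11 TMD8 arrays and 1 U2932 array each, COL3A1 on 2 and 1, and KRT18 on 1 and 1. Any part of these markers in the differences between the lines was not tested.

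The genes varied together from array to array within groups. After the group means were removed, the median correlation over the 903 pairs of genes was 0.56 across the 12 TMD8 arrays, and 91.1% of pairs were above 0. Each gene was also correlated with the mean of the others. The median over the 43 genes was 0.72 in TMD8, against -0.02 over all other features, of which 1.94% exceeded 0.72. The probe used for BUB3, a checkpoint protein, followed the others least (0.14), and its other kept probes were not correlated in this way. Across the 18 U2932 arrays under the signal table's names the median pair correlation was 0.25, with 68.7% of pairs above 0. The median over the 43 genes of the correlation with the mean of the others was 0.53 there, and 14.5% of other features exceeded this. PLK1, a kinase of mitotic entry, was the lowest at -0.39. These correlations share arrays, brightness and normalization, and are given as a description.

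Because the genes varied together, their promoters were searched for the CCAAT box (letters CCAAT, or ATTGG on the other strand) and the CHR (TTTGAA, or TTCAAA). RefSeq promoters of build GRCh38.p14, from 250 bases before to 50 after the annotated start, were matched for 36 of the 43 genes. AURKA, BIRC5, BUB3, FOXM1, TPX2, TTK and UBE2C had no entry. A CCAAT box was present in 27 of the 36 promoters (75%), against 35.7% of all 27305 promoters in the table and 37.3% of the 10336 promoters of measured genes. Of the 36, 17 (47.2%) held at least 2, against 11.3% of all promoters. The CHR letters were present in 24 (66.7%), against 15.4% of all promoters and 10.8% of those of measured genes. Both were present in 20 (55.6%), against 6.08% and 4.61%. CDC25B, CDC25C, CENPE, KIF2C and TACC3 held neither in this window. Counted in bases from the start, the median match lay at -68.5 for the CCAAT box and at -25 for the CHR.

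**Figure D1:**
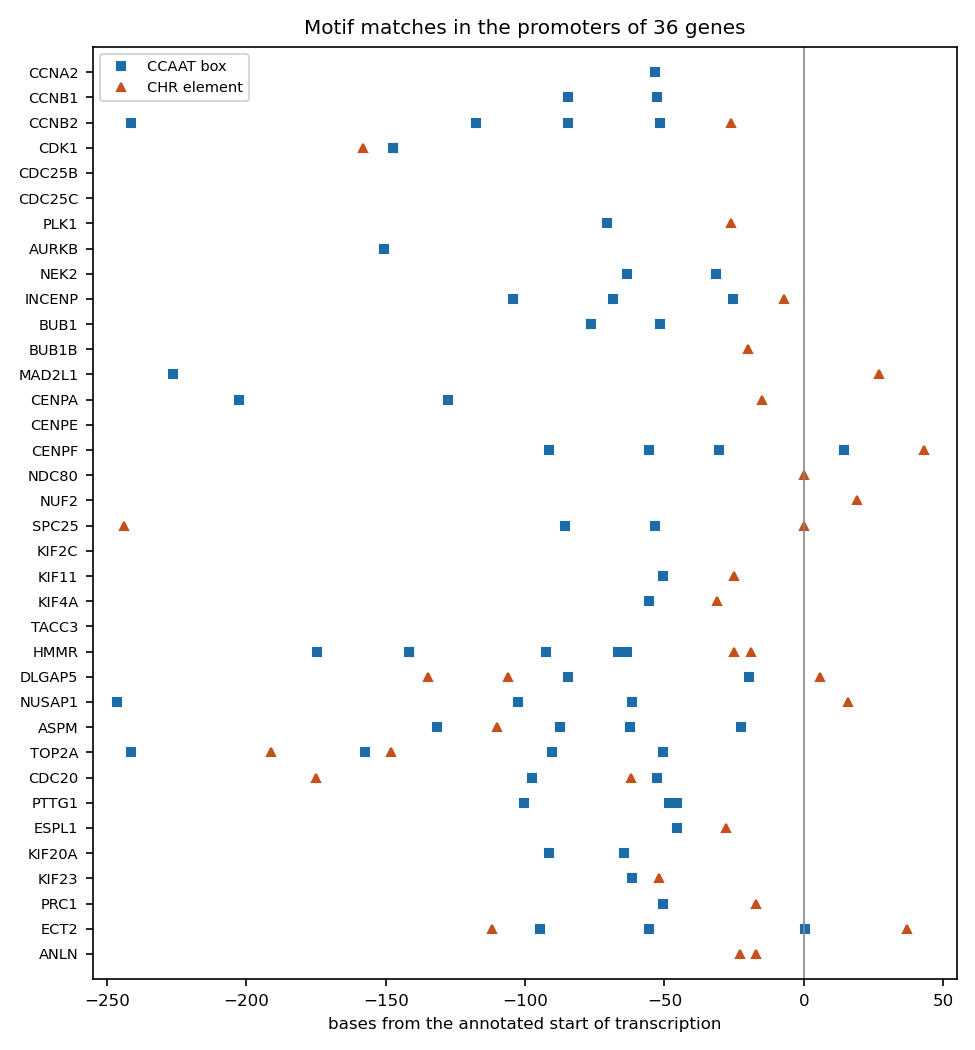
Matches of the CCAAT box (squares) and the CHR (triangles) on either strand in the promoters of 36 genes, with the distance of each match from the annotated start of transcription in bases on the x axis and 1 gene per row. CCAAT boxes lie at a median of -68.5 bases and CHR matches at a median of -25 bases, and 5 rows are empty.

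Promoters of 6 genes on which the results below turn are shown from 250 bases to 1 base before the start, 5' to 3' on the gene's strand, with CCAAT and CHR letters of either strand in capitals. BUB1 and KIF11 are among the genes with the largest difference between the lines, CENPE differs as widely without a match, PTTG1 has the opposite sign, CENPA was among the lowest at 8 h with YK-R in TMD8, and TOP2A was the only member called for a treatment under the signal table's names. The CCAAT boxes of the 2 strands can overlap, as in the CCAATTGG of PTTG1. A match is a run of letters and not a known binding site.
BUB1 (chr2:110678064-110678313, minus strand): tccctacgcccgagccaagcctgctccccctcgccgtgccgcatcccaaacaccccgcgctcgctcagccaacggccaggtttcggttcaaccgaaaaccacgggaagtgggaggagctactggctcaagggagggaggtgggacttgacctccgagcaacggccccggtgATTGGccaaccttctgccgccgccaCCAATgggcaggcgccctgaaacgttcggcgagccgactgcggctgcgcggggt
KIF11 (chr10:92592880-92593129, plus strand): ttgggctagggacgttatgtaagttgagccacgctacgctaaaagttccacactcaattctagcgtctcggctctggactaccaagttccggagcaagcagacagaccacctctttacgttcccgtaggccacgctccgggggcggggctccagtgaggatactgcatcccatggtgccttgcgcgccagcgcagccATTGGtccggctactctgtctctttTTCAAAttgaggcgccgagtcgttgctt
CENPE (chr4:103198344-103198593, minus strand): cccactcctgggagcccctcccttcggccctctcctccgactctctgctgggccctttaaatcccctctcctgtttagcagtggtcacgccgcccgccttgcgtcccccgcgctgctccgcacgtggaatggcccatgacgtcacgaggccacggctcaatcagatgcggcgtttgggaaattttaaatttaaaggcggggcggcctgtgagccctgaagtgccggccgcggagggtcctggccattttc
PTTG1 (chr5:160421605-160421854, plus strand): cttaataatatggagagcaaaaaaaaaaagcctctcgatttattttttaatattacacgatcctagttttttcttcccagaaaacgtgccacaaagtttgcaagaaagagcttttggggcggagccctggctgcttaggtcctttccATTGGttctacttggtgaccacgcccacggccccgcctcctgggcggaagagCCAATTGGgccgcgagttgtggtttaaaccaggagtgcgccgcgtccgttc
CENPA (chr2:26785806-26786055, plus strand): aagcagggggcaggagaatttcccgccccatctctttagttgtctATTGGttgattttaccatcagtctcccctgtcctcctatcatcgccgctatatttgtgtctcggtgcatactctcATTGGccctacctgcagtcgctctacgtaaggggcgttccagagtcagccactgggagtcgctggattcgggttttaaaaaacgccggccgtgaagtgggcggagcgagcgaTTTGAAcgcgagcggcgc
TOP2A (chr17:40417897-40418146, minus strand): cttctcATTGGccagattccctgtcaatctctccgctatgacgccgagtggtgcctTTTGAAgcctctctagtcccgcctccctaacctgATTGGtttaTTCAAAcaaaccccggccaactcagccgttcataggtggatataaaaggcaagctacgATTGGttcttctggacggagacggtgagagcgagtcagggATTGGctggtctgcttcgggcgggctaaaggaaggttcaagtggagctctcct

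Between the lines, mitosis and spindle genes were mostly higher in TMD8 than in U2932, and most of all the checkpoint kinase BUB1, the kinetochore genes SPC25, CENPE and NDC80, the cytokinesis scaffold ANLN and the spindle motor KIF11. The mean of the 4 TMD8 groups was compared with the mean of the 6 U2932 groups with limma over all 30 arrays, and a gene was called at an adjusted p under 0.05 (Benjamini-Hochberg over the 20625 features). Of the 43 genes, 26 were called higher and 4 lower in TMD8, and 13 were not called, where 56.9% of all features were called (6367 higher and 5361 lower). The median of the 43 log2 differences was 0.56, against 0.007 over all features. The groups of arrays did not overlap for 8 of the 43 genes, 7 higher and 1 lower, against 13.6% of all features. How large these differences are depends on how arrays of unequal brightness are put on 1 scale. Scaling each array to a common median moved the median of all features to 0.69, and quantile normalization within each line moved it to 1.10. All 43 genes were then called higher, and their median stood 1.37 and 1.40 above that shift, against 0.55 above it in the quantile normalization over 30 arrays used here. Because the shift moves all features together, that count alone does not set the 43 genes apart. Over all settings tried, which differ in the features tested, 5528 to 18793 features were called in this comparison. With the 8 h groups alone and without dim arrays, a comparison added after the data were seen, 24 were called higher and 2 lower, and the median stood 0.41 above that of all features. The 26 genes called higher stayed above the median of all features in each of these settings and with a plain background correction. Line, array brightness and any batch by line cannot be told apart. Which array belongs to which U2932 group does not enter the difference between the line means. It does enter the spread within groups, and so the errors, the adjusted p-values and the calls. These, and the choice of 8 h arrays, follow the signal table's names. Leaving out any 1 array left 30 to 33 genes called, where 11154 to 12887 of the 20625 features were called.

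**Figure D2:**
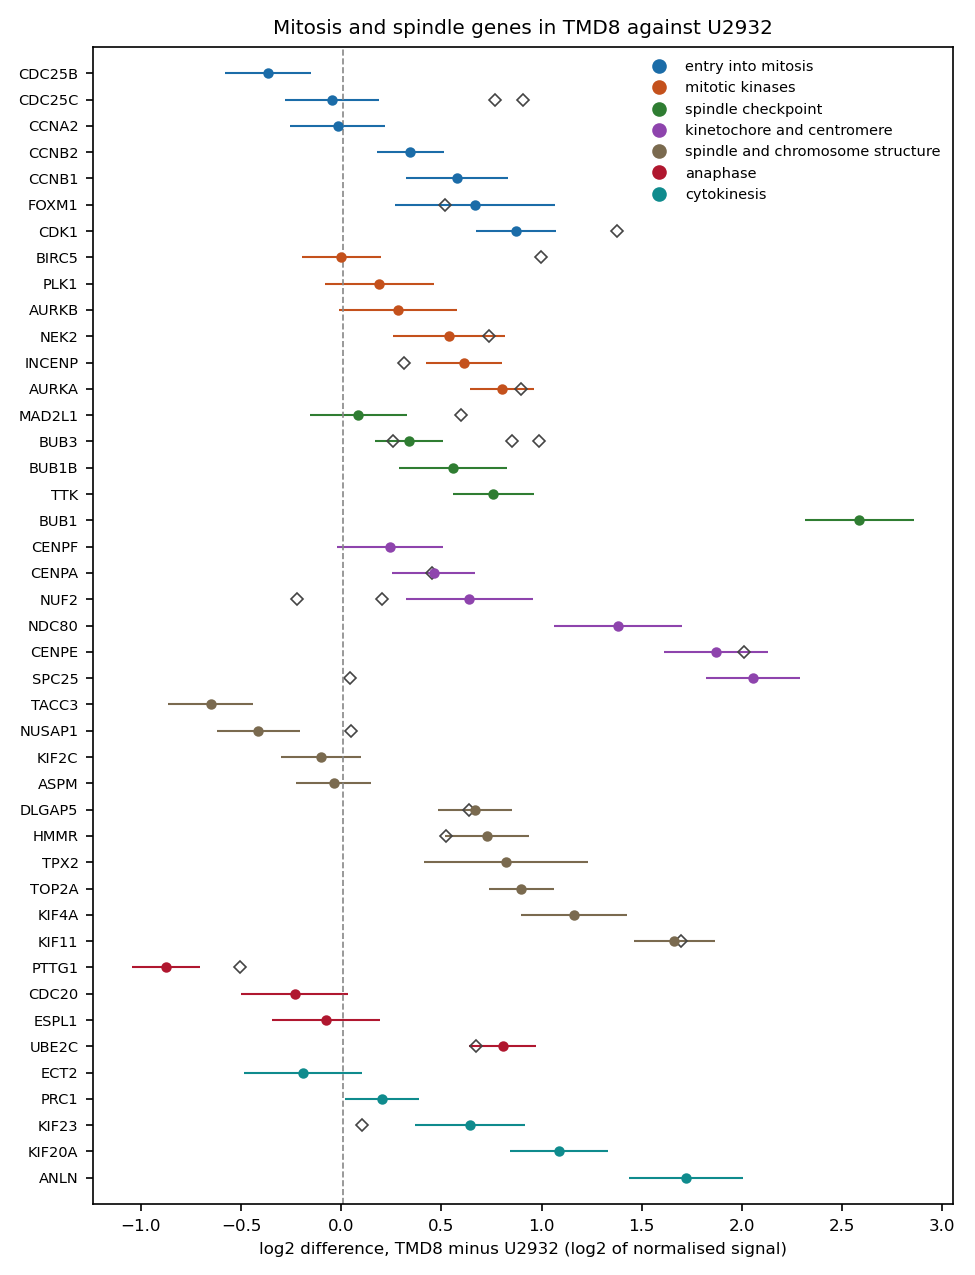
Log2 difference of TMD8 minus U2932 for each of the 43 genes, coloured by role, with 95% intervals from the fit of 30 arrays, and open diamonds for other kept probes of the same gene. The dashed line marks the median of all features (0.007). BUB1 lies farthest to the right (2.59) and PTTG1 farthest to the left (-0.87). The 4 genes called lower change sign under median scaling and under quantile normalization within each line.

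In the spindle checkpoint, which holds back anaphase until every chromosome is attached, 4 of 5 genes were called higher in TMD8 and the median difference was 0.56. BUB1, a kinase that docks the checkpoint on kinetochores, ranged over 9.13 to 9.82 (median 9.38) in TMD8 and 5.51 to 7.44 (median 7.01) in U2932. No U2932 array reached the lowest TMD8 array. The difference was 2.59 (SE 0.13, adjusted p = 3.21e-15), a 6.01-fold higher level, and it stayed between 2.14 and 3.36 relative to the median of all features in the other settings. TTK, the MPS1 kinase that starts checkpoint signalling, ranged over 8.97 to 9.92 (median 9.56) in TMD8 and 8.33 to 9.24 (median 8.78) in U2932, a difference of 0.76 (SE 0.10, adjusted p = 2.11e-07). BUB1B, the BUBR1 protein that blocks the anaphase-promoting complex, ranged over 7.54 to 8.32 (median 7.89) in TMD8 and 6.43 to 8.77 (median 7.40) in U2932, a difference of 0.56 (SE 0.13, adjusted p = 6.98e-04). Their ranges overlapped between the lines. BUB3, which carries BUB1 and BUBR1 to kinetochores, was at 11.25 to 11.61 (median 11.47) in TMD8 and 10.81 to 11.61 (median 11.09) in U2932, a difference of 0.34 (SE 0.08, adjusted p = 9.03e-04), and its other 3 kept probes lay at 0.26, 0.85 and 0.99. MAD2L1, the MAD2 subunit of the inhibitor, was not called, at 0.09 (SE 0.12, adjusted p = 0.552), although its second kept probe lay at 0.60.

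Of the 6 kinetochore and centromere genes, 5 were called higher in TMD8, with a median of 1.01. SPC25, CENPE and NDC80 were the widest apart. SPC25, a subunit of the NDC80 complex that grips microtubules, was at 8.16 to 8.88 (median 8.54) in TMD8 and 5.56 to 7.08 (median 6.44) in U2932 and did not overlap between the lines. Its difference was 2.06 (SE 0.11, adjusted p = 1.60e-14), but a second kept probe lay at 0.04, so the SPC25 difference rests on 1 probe. CENPE, a motor that carries chromosomes to the spindle equator, was at 8.93 to 9.85 (median 9.49) in TMD8 and 6.63 to 8.07 (median 7.71) in U2932 without overlap, a difference of 1.87 (SE 0.13, adjusted p = 1.03e-12), with 2.01 at its second probe. NDC80, which gives the complex its name, was at 8.36 to 9.68 (median 9.17) in TMD8 and 6.19 to 8.44 (median 7.81) in U2932 and overlapped at the edge of the ranges, with a difference of 1.38 (SE 0.16, adjusted p = 2.15e-08). NUF2, its partner in the complex, was at 7.46 to 8.71 (median 8.07) in TMD8 and 5.39 to 8.56 (median 7.62) in U2932. The NUF2 difference of 0.64 (SE 0.15, adjusted p = 8.87e-04) was not shared by its other probes, at -0.22 and 0.21. CENPA, the histone H3 variant of centromeres, was at 8.73 to 9.66 (median 9.36) in TMD8 and 8.20 to 9.45 (median 8.80) in U2932, a difference of 0.46 (SE 0.10, adjusted p = 2.98e-04), with 0.45 at its second probe. CENPF, a large kinetochore protein, was not called, at 0.24 (SE 0.13, adjusted p = 0.107).

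Spindle and chromosome structure genes went both ways, with 6 of 10 called higher and 2 lower and a median of 0.70. KIF11, the kinesin Eg5 that pushes spindle poles apart, was at 8.87 to 9.66 (median 9.35) in TMD8 and 7.18 to 8.26 (median 7.70) in U2932, without overlap, a difference of 1.66 (SE 0.10, adjusted p = 6.95e-14), and its second probe lay at 1.70. KIF4A, a chromosome-bound kinesin, was at 7.48 to 8.15 (median 7.62) in TMD8 and 5.05 to 7.05 (median 6.59) in U2932, also without overlap, a difference of 1.16 (SE 0.13, adjusted p = 1.66e-08). These 2 motors were 3.17-fold and 2.24-fold higher in TMD8. TOP2A, the topoisomerase that untangles sister chromatids, was at 10.78 to 11.33 (median 11.16) in TMD8 and 9.78 to 11.11 (median 10.16) in U2932, a difference of 0.90 (SE 0.08, adjusted p = 2.19e-10). TPX2, which activates Aurora A and seeds microtubules, was at 8.73 to 9.39 (median 9.06) in TMD8 and 5.72 to 9.04 (median 8.36) in U2932. Its lowest U2932 array widened the error, and the difference was 0.82 (SE 0.20, adjusted p = 9.73e-04). HMMR, a spindle pole protein, was at 9.35 to 10.18 (median 9.84) in TMD8 and 8.46 to 9.59 (median 9.21) in U2932, a difference of 0.73 (SE 0.10, adjusted p = 7.71e-07). DLGAP5, which stabilises kinetochore fibres, was at 9.60 to 10.21 (median 9.97) in TMD8 and 8.82 to 9.70 (median 9.36) in U2932, a difference of 0.67 (SE 0.09, adjusted p = 3.53e-07). TACC3, which crosslinks kinetochore fibres, and NUSAP1, which bundles spindle microtubules, were called lower. TACC3 was at 7.26 to 8.12 (median 7.64) in TMD8 and 7.72 to 9.10 (median 8.29) in U2932, a difference of -0.65 (SE 0.10, adjusted p = 5.64e-06), which became 0.93 under median scaling and 1.31 under quantile normalization within each line. NUSAP1 was at 10.01 to 10.99 (median 10.35) in TMD8 and 10.21 to 11.27 (median 10.73) in U2932, a difference of -0.41 (SE 0.10, adjusted p = 9.67e-04) that became 1.04 and 1.43 there, and its second probe lay at 0.05. KIF2C and ASPM were not called.

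In the group of genes for entry into mitosis, 4 of 7 were called higher and 1 lower, with a median of 0.34. CDK1, the kinase that drives entry, was at 9.94 to 10.50 (median 10.27) in TMD8 and 8.49 to 9.83 (median 9.44) in U2932 and did not overlap between the lines. The CDK1 difference was 0.87 (SE 0.10, adjusted p = 1.96e-08), with 1.38 at its second probe. Its activating subunits, the B cyclins, were higher as well. CCNB1 was at 8.59 to 9.40 (median 8.87) in TMD8 and 7.53 to 8.99 (median 8.34) in U2932, a difference of 0.58 (SE 0.12, adjusted p = 2.58e-04). CCNB2 was at 9.59 to 10.35 (median 9.96) in TMD8 and 9.32 to 9.97 (median 9.63) in U2932, a difference of 0.34 (SE 0.08, adjusted p = 6.46e-04). FOXM1, the transcription factor of these genes, spread from below background upwards in U2932. Its levels were 7.02 to 7.76 (median 7.41) in TMD8 and 4.48 to 7.75 (median 6.90) in U2932, a difference of 0.67 (SE 0.19, adjusted p = 0.00469). The value of 4.48 came from the second DMSO array at 4 h, a dim one, and the next lowest U2932 array was at 6.14. CDC25B, a phosphatase that activates CDK1, was at 7.74 to 8.45 (median 8.04) in TMD8 and 7.85 to 9.04 (median 8.35) in U2932. Its difference of -0.37 (SE 0.10, adjusted p = 0.00372) became 1.23 and 1.61 under median scaling and quantile normalization within each line. Cyclin A2 (CCNA2) and CDC25C were not called, at -0.02 and -0.05, although 2 other CDC25C probes lay at 0.77 and 0.91.

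Among the mitotic kinases and their partners 3 of 6 were called higher, with a median of 0.41. AURKA, the Aurora kinase of spindle poles, was at 9.96 to 10.86 (median 10.57) in TMD8 and 9.21 to 10.07 (median 9.66) in U2932, a difference of 0.80 (SE 0.08, adjusted p = 1.34e-09), with 0.90 at its second probe. INCENP, the scaffold of the chromosomal passenger complex, was at 7.22 to 7.79 (median 7.49) in TMD8 and 6.38 to 7.91 (median 6.78) in U2932, a difference of 0.61 (SE 0.09, adjusted p = 2.43e-06). NEK2, which separates centrosomes, was at 9.07 to 9.79 (median 9.39) in TMD8 and 7.99 to 9.75 (median 8.91) in U2932, a difference of 0.54 (SE 0.14, adjusted p = 0.00145). The other passenger genes were not called. AURKB, the kinase of that complex, lay at 0.28 and BIRC5, the survivin subunit, at 0.00, with 1.0 at a second BIRC5 probe. PLK1 was not called either, at 0.19.

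The anaphase genes were divided, with a median of -0.15. UBE2C, the ubiquitin-conjugating enzyme of the anaphase-promoting complex, was at 10.58 to 11.31 (median 11.08) in TMD8 and 9.63 to 10.58 (median 10.25) in U2932, a difference of 0.81 (SE 0.08, adjusted p = 3.01e-09), with 0.67 at its second probe. PTTG1, the securin that restrains separase, went the other way, at 10.35 to 11.06 (median 10.81) in TMD8 and 11.07 to 12.03 (median 11.64) in U2932, with every TMD8 array below every U2932 array. Its difference was -0.87 (SE 0.08, adjusted p = 7.75e-10), a 1.83-fold lower level, and -0.51 at its second probe. PTTG1 changed sign to 0.52 under median scaling and 0.92 under quantile normalization within each line, yet stayed below the median of all features, by 0.17 to 0.85, in every setting tried for it. CDC20 and separase (ESPL1) were not called. In cytokinesis 3 of 5 genes were called higher, with a median of 0.64. ANLN, the anillin scaffold of the contractile ring, was at 7.02 to 8.07 (median 7.54) in TMD8 and 4.65 to 7.14 (median 5.95) in U2932, a difference of 1.72 (SE 0.14, adjusted p = 3.38e-11), the U2932 values reaching down to background. KIF20A, a motor that relocates the passenger complex, was at 8.34 to 9.19 (median 9.03) in TMD8 and 7.20 to 8.30 (median 7.78) in U2932 without overlap, a difference of 1.09 (SE 0.12, adjusted p = 1.29e-08). KIF23, the kinesin of centralspindlin, was at 7.95 to 8.76 (median 8.27) in TMD8 and 6.05 to 8.12 (median 7.73) in U2932, a difference of 0.64 (SE 0.13, adjusted p = 1.81e-04), with 0.10 at a second probe. PRC1 and ECT2 were not called. In all, 20 of the 43 genes had 24 other kept probes, and 19 of these gave the same sign between the lines as the probe used.

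The other lists are read against the same background, where 56.9% of all features were called between the lines, 30.9% higher and 26% lower in TMD8. Of 24 other mitotic kinesins and spindle factors, 14 were called higher and 4 lower in TMD8 (median 0.63), and of 32 other kinetochore genes 13 higher and 8 lower (median 0.20). Of 15 condensin and cohesin genes 7 were called higher and 3 lower, of 13 centrosome genes 9 and 2, and of 15 genes of the anaphase-promoting complex 4 and 6. S phase genes, which act in DNA replication earlier in the cycle, had 5 of 35 called higher and 21 lower (median -0.35). The median of the S phase genes turned positive, at 1.03 and 1.42, under median scaling and quantile normalization within each line, where it stood 0.34 and 0.32 above all features, against 1.37 and 1.40 for the 43 genes. E2F2, an activator of S phase genes, was lower in TMD8 by a log2 difference of -2.53, and GINS2, a subunit of the replicative helicase, by -2.42, both also lower under those scalings. Of 17 regulators of the G2/M programme 8 were called higher and 4 lower. RB1, the retinoblastoma protein, differed most, at 2.88 (SE 0.13, adjusted p = 1.39e-16), and its relative RBL2, the p130 subunit of DREAM, lay at 1.40. GADD45A, a stress-induced inhibitor of CDK1, lay at -2.34 (SE 0.08, adjusted p = 2.04e-19). RB1 stayed higher and GADD45A lower in each scaling, whereas TFDP1 (-0.64), CDKN1A (-0.44) and WEE1 (-0.42), called lower here, turned positive under both other scalings.

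In TMD8 treated with YK-R, most mitosis and spindle genes lay lower at 8 h than at 4 h, with the kinetochore genes NUF2, NDC80 and CENPA at the low end, and no member was called. Of the 43 log2 differences 35 lay below 0, with a median of -0.20 against -0.016 over all features, of which 53.5% lay below 0. Median scaling gave -0.39, where it moved the median of all features to -0.12. In the fit of the 12 TMD8 arrays, 0.124% of 19284 features were called in this comparison, with 0.0259% called lower. At an unadjusted p under 0.05, 9 of the 43 passed, and 1829 of the 19284 features. For 10 of the 43 genes (23.3%) the 2 groups did not overlap, all lower at 8 h, against 14.6% of all features in either direction and 8.53% lower. The kinetochore genes had the lowest median, at -0.47 with none of 6 above 0. NUF2 was at 8.19, 8.71 and 8.18 at 4 h and at 7.72, 7.46 and 7.91 at 8 h, a difference of -0.66 (SE 0.22, adjusted p = 0.354), while its other probes gave -0.02 and -0.29. NDC80 was at 9.10, 9.68 and 9.29 and then at 8.81, 8.36 and 8.96, a difference of -0.65 (SE 0.24, adjusted p = 0.413). CENPA was at 9.39, 9.46 and 9.66 and then at 8.73, 9.14 and 8.92, a difference of -0.57 (SE 0.15, adjusted p = 0.22), with -0.48 at its second probe. All 3 act where chromosomes meet the spindle. ANLN was at 7.55, 8.07 and 7.72 at 4 h and 7.26, 7.02 and 7.47 at 8 h, a difference of -0.53 (SE 0.22, adjusted p = 0.464). The kinase AURKA was at 10.56, 10.63 and 10.73 and then 9.96, 10.04 and 10.38, a difference of -0.51 (SE 0.14, adjusted p = 0.248), with -0.51 at its second probe too. TTK was at 9.48, 9.60 and 9.78 and then 8.97, 8.98 and 9.39, a difference of -0.51 (SE 0.16, adjusted p = 0.313). ESPL1, UBE2C, CCNB1 and MAD2L1 were the other 4 genes whose groups did not overlap. The probe used for BUB3 gave 0.002, while its other kept probes gave -0.66, -0.23 and -0.29. Medians by role were -0.21 for cytokinesis and for entry into mitosis, -0.19 for spindle structure, -0.09 for anaphase and for the checkpoint, and -0.05 for the mitotic kinases. Other kinesins and spindle factors had 1 of 24 above 0 (median -0.19), other kinetochore genes 5 of 32 (-0.17) and S phase genes 7 of 35 (-0.09), none of them called.

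In TMD8 treated with YK-S the same interval of time left the 43 genes near 0, with 20 above 0 and a median of -0.030 against -0.012 over all features. None was called, where 0.0467% of features were. AURKA alone did not overlap between the times (10.4% of all features did not). It was at 10.61, 10.86 and 10.74 at 4 h and at 10.34, 10.18 and 10.57 at 8 h, a difference of -0.38 (SE 0.14, adjusted p = 0.876). The difference between the YK-S and the YK-R change with time was tested directly. It was above 0 for 35 of 43 genes with a median of 0.13, and no member was called, nor any feature (0% of 19284), where 703 features had an unadjusted p under 0.05 and 964 would by chance.

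**Figure D3:**
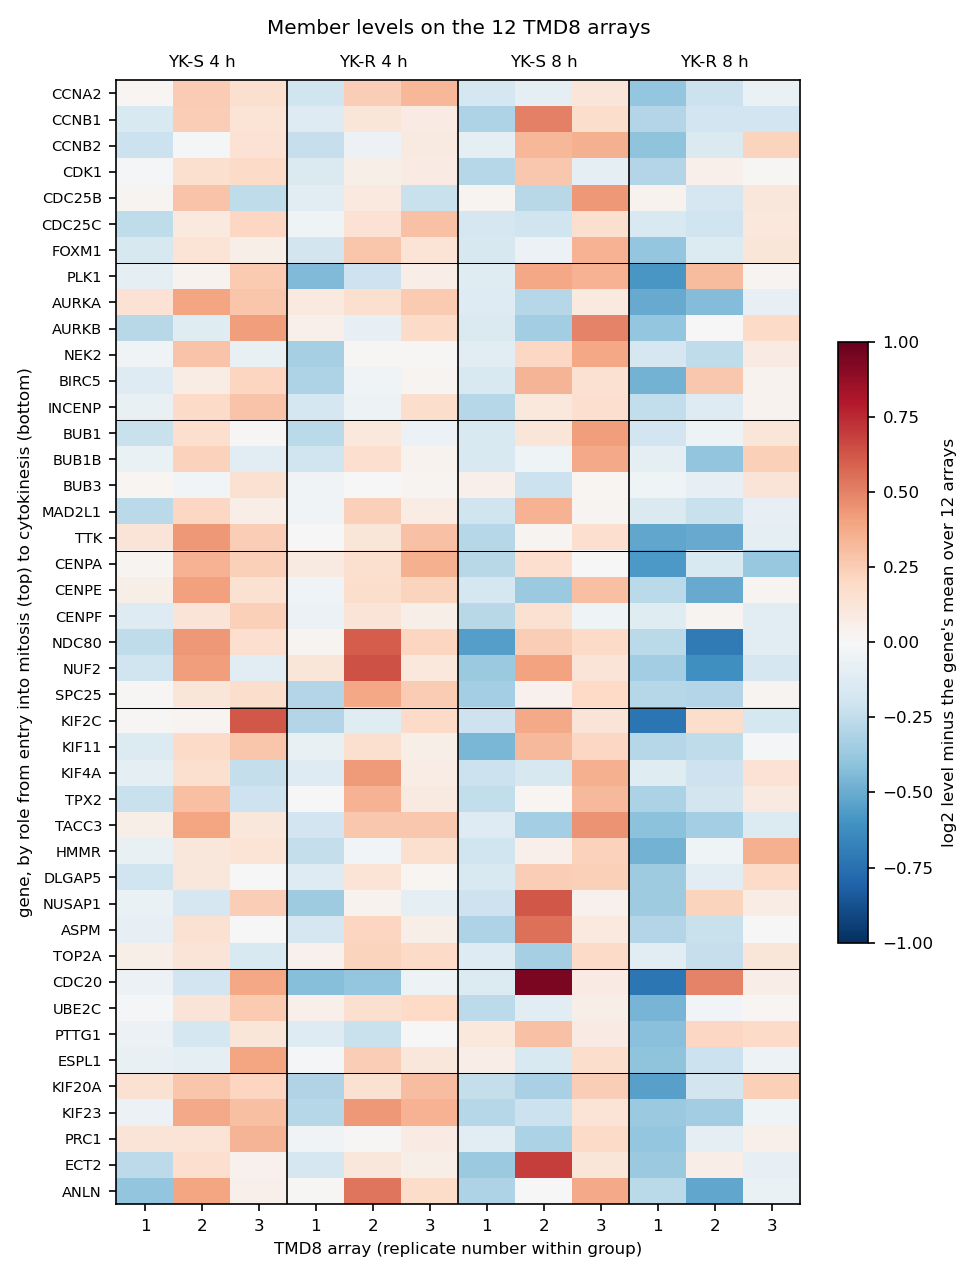
Log2 level of each gene on each of the 12 TMD8 arrays minus the gene's mean over them, with genes in rows by role and arrays in columns by group. Red is higher and blue lower, and the array numbered 1 has the lowest median of the 43 genes in each group, from -0.07 in YK-S at 4 h to -0.35 in YK-R at 8 h.

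Between the enantiomers in TMD8 no member was called at either time. At 8 h, 41 of the 43 genes lay higher in the YK-S arrays, with a median log2 difference of 0.17, against 0.006 and 51.7% over all features, of which 0.0674% were called (0.0622% higher). Median scaling gave 0.42, with 0.15 over all features. The largest were NUF2 at 0.43, CDC20 and CCNB1 at 0.35, and TTK and KIF2C at 0.34. CENPA, at 0.33, had the lowest adjusted p of the 43 (0.794). The probe used for BUB3 lay at -0.05, while its other kept probes lay at 0.31, 0.14 and 0.15. The groups overlapped for every member, where 8.37% of all features did not overlap. The median of the 43 half-widths of the 95% intervals was 0.39, wider than the median difference, and the intervals ran up to 1.0 for CDC20, so differences of up to that size between the enantiomers are not excluded by these arrays. At 4 h, 26 of 43 lay higher with YK-S and the median was 0.041 (-0.041 to 0.10 with 1 array left out), where 0.00519% of features were called. PRC1, which bundles the microtubules of the central spindle, alone did not overlap (7.81% of all features did not), at 10.28, 10.29 and 10.50 with YK-S and 10.12, 10.17 and 10.24 with YK-R, a difference of 0.18 (SE 0.15, adjusted p = 1.0). Averaged over both times, 39 of 43 lay above 0 with a median of 0.11 and none called, where 0.083% of features were. The YK-S and YK-R groups at 8 h enter both the comparison of the enantiomers and the comparisons of times, so these results share arrays.

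**Figure D4:**
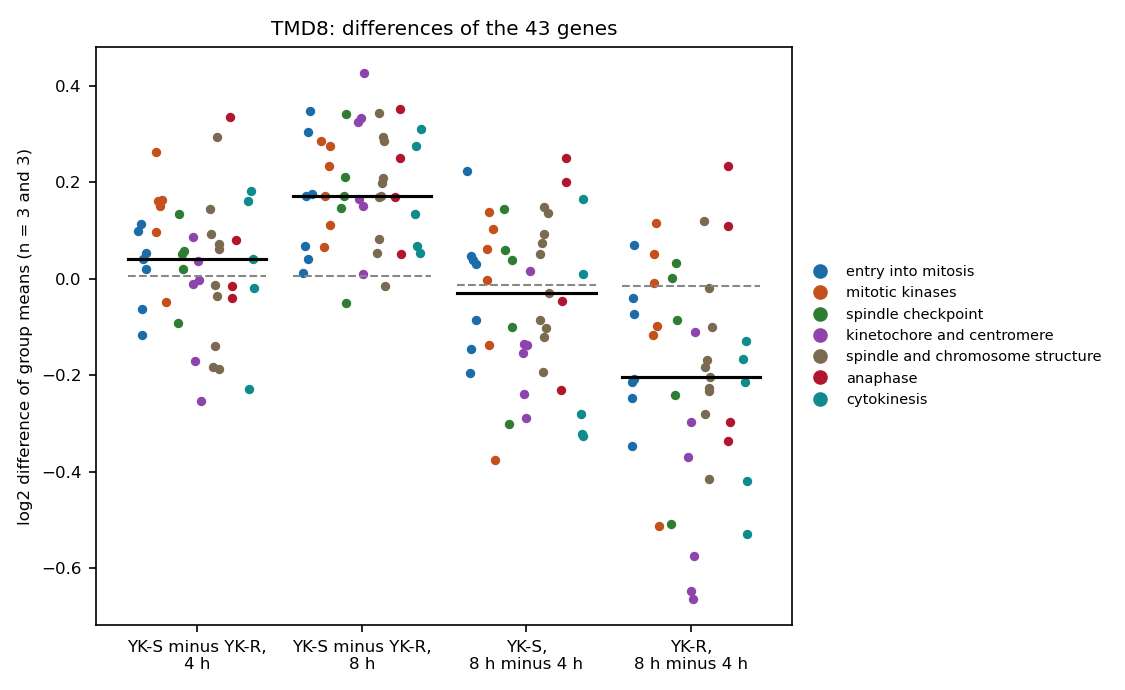
Log2 differences of the 43 genes in TMD8, coloured by role, for YK-S minus YK-R at 4 h and 8 h and for 8 h minus 4 h with each enantiomer. Solid lines are medians of the 43 genes (0.041, 0.17, -0.030 and -0.20) and dashed lines medians of all features, and no gene was called in any of the 4 comparisons.

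Single arrays carried much of these medians. The median deviation of the 43 genes from their TMD8 means ran from -0.07 to 0.16 over the 3 arrays of YK-S at 4 h, from -0.13 to 0.14 for YK-R at 4 h, from -0.20 to 0.18 for YK-S at 8 h and from -0.35 to 0.03 for YK-R at 8 h. The array numbered 1 was the lowest in each group, and the numbers follow accession order only. Its part in the results was not tested beyond leaving it out. Without that array of YK-R at 8 h, the median difference between times with YK-R was -0.084 and that between the enantiomers at 8 h was 0.090. Without that array of YK-R at 4 h the former was -0.29, and it was -0.13 without the third array of that group. Without the first and the third array of YK-S at 8 h, in turn, the latter was 0.30 and 0.087. No member was called in TMD8 in any of these fits. In the value table, whose TMD8 names agree, no difference moved by more than 0.047 and 42 or 43 of the 43 genes kept their sign in each comparison.

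In U2932 at 4 h, TOP2A was lower with YK-R than with DMSO, and the other 42 genes were not called, under the signal table's names. TOP2A was at 10.15, 9.94 and 10.03 with YK-R and at 10.88, 11.11 and 10.45 with DMSO, a difference of -0.77 (SE 0.20, adjusted p = 0.0493), in the fit of the 18 U2932 arrays that called 2.77% of 17083 features (1.25% higher and 1.52% lower). All 6 arrays compared were dim. The call was lost without the second DMSO array and without any 1 of the YK-R arrays, while 12 members were called without the third DMSO array, where 29.3% of all features were called, and 2 without the first, where 9.68% were. It was also lost under median scaling, with array weights and with only probes above background on every array. Under the value table's names the TOP2A arrays were at 9.91, 10.87 and 10.04 with YK-R and 9.59, 10.66 and 9.94 with DMSO, a difference of 0.21 (SE 0.24, adjusted p = 0.623). The groups did not overlap for 11 of 43 genes, 8 higher and 3 lower, against 19.3% of all features. NUF2 was at 7.64, 7.91 and 7.83 with YK-R and at 6.91, 5.39 and 7.06 with DMSO, a difference of 1.33 (SE 0.38, adjusted p = 0.0634) and of -0.12 under the value table's names. MAD2L1 was at 10.81, 11.12 and 10.90 with YK-R and at 10.01, 9.38 and 10.48 with DMSO, a difference of 0.99 (SE 0.31, adjusted p = 0.0792) and of 0.05 in the value table. The second DMSO array was the lowest of the 6 for both genes. CDC25C was at 7.43, 7.44 and 7.60 with YK-R and at 6.77, 5.74 and 7.31 with DMSO, a difference of 0.88 (SE 0.30, adjusted p = 0.0986) and of -0.08 in the value table. KIF23 was at 7.91, 7.94 and 8.12 with YK-R and at 7.73, 6.05 and 7.74 with DMSO, a difference of 0.82 (SE 0.33, adjusted p = 0.147) and of -0.43 in the value table. INCENP went the other way, at 6.52, 6.74 and 7.0 with YK-R and at 7.30, 7.91 and 7.37 with DMSO, a difference of -0.77 (SE 0.23, adjusted p = 0.0757) and of 0.36 in the value table. The median of the 43 genes was 0.24 with 27 above 0, and by the value table's naming -0.12 with 14 above 0. The DMSO array numbered 2 had a median deviation of -0.51 from the genes' U2932 means, against 0.084 and 0.11 for its group mates. It was the lowest of the 6 for CDC25C and KIF23 too. The value table names this array YK-R at 4 h, where it was the lowest of its group at -0.37. Leaving out 1 array gave medians of 0.054 to 0.42 under the signal table's names. The part of this array in the opposite signs was not tested further.

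Under the value table's names 2 other genes were called lower with YK-R at 4 h, where 1.93% of features were called. AURKB, the kinase of the passenger complex, was at 7.99, 7.56 and 8.11 with YK-R and 8.76, 8.42 and 8.74 with DMSO, a difference of -0.75 (SE 0.16, adjusted p = 0.0299). PRC1 was at 9.29, 9.39 and 9.62 with YK-R and 9.79, 9.96 and 9.86 with DMSO, a difference of -0.44 (SE 0.10, adjusted p = 0.0396). The 2 groups did not overlap for either gene. Under the signal table's names the same comparison gave 0.15 for AURKB and 0.00 for PRC1, neither called. Of the 43 genes, 14 had the same sign under both namings.

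YK-S against DMSO at 4 h called no member and no feature (0% of 17083, with 3151 at an unadjusted p under 0.05 where 854 would be by chance). The median of the 43 genes was -0.01, and 0.03 under the value table's names. The groups did not overlap for 7 of the 43, 1 higher and 6 lower, against 12.7% of all features. TOP2A was at 10.25, 9.78 and 9.84 with YK-S and at 10.88, 11.11 and 10.45 with DMSO, a difference of -0.86 (SE 0.20, adjusted p = 0.0874), and of -0.33 under the value table's names. TACC3 was at 7.98, 8.13 and 7.72 with YK-S and at 8.90, 8.77 and 8.45 with DMSO, a difference of -0.76 (SE 0.25, adjusted p = 0.148), and of -0.47 under the other naming, where the groups did not overlap either. INCENP was at 7.18, 6.64 and 6.61 with YK-S and at 7.30, 7.91 and 7.37 with DMSO, a difference of -0.72 (SE 0.23, adjusted p = 0.15), and of -0.03 in the value table. The DMSO 4 h arrays are those of the YK-R comparison above, and all 3 were dim. CDC20 was at 10.66, 10.45 and 10.55 with YK-S and at 10.75, 10.76 and 11.16 with DMSO, a difference of -0.34 (SE 0.25, adjusted p = 0.446). HMMR was at 8.89, 8.77 and 8.55 with YK-S and at 9.25, 8.90 and 8.90 with DMSO, a difference of -0.28 (SE 0.24, adjusted p = 0.521). PTTG1 was the one gene higher without overlap, at 12.03, 11.71 and 11.78 with YK-S and at 11.59, 11.28 and 11.65 with DMSO, a difference of 0.33 (SE 0.20, adjusted p = 0.364). These 3 gave -0.03, -0.03 and 0.17 under the value table's names. Under median scaling, which moved the median of all features to 0.71, the 5 lower genes named here turned positive, from 0.42 to 1.17, and the median of the 43 became 1.17. Without the third DMSO array 5 members and 18.1% of all features were called, and without the first 1 member and 7.32%.

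Between the enantiomers at 4 h in U2932 the sign of the list differed between the deposited tables, which differ in array names and in normalization together. Under the signal table's names 39 of 43 genes lay lower with YK-S, with a median of -0.27 against 0.036 over all features, and under the value table's names 31 of 43 lay higher, with a median of 0.20. Of the 6 arrays 4 were dim, all 3 of YK-R among them, and 4 by the value table's naming. No member or feature was called under either naming (0%, with 690 and 1989 features at an unadjusted p under 0.05). The groups did not overlap for 8 of 43 under the signal table's names, 1 higher and 7 lower, against 9.85% of all features. BUB1 was at 6.23, 6.11 and 6.27 with YK-S and at 6.5, 7.04 and 7.05 with YK-R, a difference of -0.66 (SE 0.35, adjusted p = 1.0) and of 0.36 under the value table's names. BUB1B went the other way, at 7.13, 7.13 and 6.82 with YK-S and at 6.66, 6.72 and 6.43 with YK-R, a difference of 0.42 (SE 0.33, adjusted p = 1.0) and of -0.28 in the value table. The 2 checkpoint genes thus took opposite signs, and each had the other sign in the value table. AURKA was at 9.81, 9.53 and 9.49 with YK-S and at 10.07, 9.89 and 10.04 with YK-R, a difference of -0.39 (SE 0.20, adjusted p = 1.0) and of 0.22 in the value table. HMMR was at 8.89, 8.77 and 8.55 with YK-S and at 9.01, 9.13 and 9.24 with YK-R, a difference of -0.39 (SE 0.24, adjusted p = 1.0) and of 0.20 in the value table. Both encode spindle pole proteins. TPX2 was at 8.33, 7.89 and 7.95 with YK-S and at 8.48, 8.35 and 8.46 with YK-R, a difference of -0.37 (SE 0.53, adjusted p = 1.0) and of 0.63 in the value table. CCNA2 was at 9.83, 10.02 and 9.56 with YK-S and at 10.07, 10.11 and 10.22 with YK-R, a difference of -0.33 (SE 0.30, adjusted p = 1.0) and of 0.57 in the value table. Under median scaling, which moved the median of all features to 0.90, the median of the 43 became 1.03 and the 5 genes named here as lower turned positive. The half-width of the 95% interval had a median of 0.60 over the 43 genes.

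At 8 h, where 1 array was dim by the signal table's naming and 2 were by that of the value table, no member was called against DMSO or between the enantiomers under either naming, nor any feature (0% of 17083 in each). With YK-S against DMSO the median of the 43 genes was 0.08 with 27 above 0. KIF2C alone did not overlap (12.2% of all features did not), at 7.57, 8.05 and 8.10 with YK-S and at 8.14, 8.11 and 8.32 with DMSO, a difference of -0.28 (SE 0.19, adjusted p = 1.0). The first YK-S array, the dim one, was the lowest for KIF2C. By the value table's naming the median was 0.16 with 33 above 0, KIF2C lay at 0.01, and 11 of the 43 (25.6%) did not overlap, all higher with YK-S, against 7.8% of all features and 3.27% higher. The widest of the 11 was BUB1B, at 8.18, 8.67 and 8.02 with YK-S and 7.96, 7.88 and 7.78 with DMSO, a difference of 0.42 (SE 0.18, adjusted p = 1.0). FOXM1 was at 7.36, 7.83 and 7.44 with YK-S and 7.24, 7.14 and 7.16 with DMSO, a difference of 0.37 (SE 0.15, adjusted p = 1.0). AURKA, AURKB, PRC1, BUB1, ANLN, CCNA2, CENPE, KIF4A and INCENP, between 0.28 and 0.11, were the others. Over all features 157 had an unadjusted p under 0.05, where 854 would by chance. With YK-R against DMSO the median was 0.08 with 30 above 0, and 0.04 with 23 above 0 under the value table's names. MAD2L1 alone did not overlap (8.93% of all features did not), at 9.66, 9.89 and 9.99 with YK-R and at 10.61, 10.08 and 10.11 with DMSO, a difference of -0.42 (SE 0.31, adjusted p = 1.0) and of 0.06 under the other naming. Between the enantiomers at 8 h the median was 0.02 with 23 above 0, and 0.14 with 28 above 0 under the value table's names. MAD2L1 was at 10.87, 10.07 and 10.17 with YK-S and at 9.66, 9.89 and 9.99 with YK-R, a difference of 0.52 (SE 0.31, adjusted p = 1.0). CDC20 was at 10.22, 11.09 and 11.01 with YK-S and at 11.12, 11.20 and 11.17 with YK-R, a difference of -0.39 (SE 0.25, adjusted p = 1.0). The dim array was the first with YK-S, and it lay farthest from the YK-R arrays for both genes. CENPF was at 7.5, 7.90 and 7.97 with YK-S and at 8.03, 8.20 and 7.99 with YK-R, a difference of -0.28 (SE 0.34, adjusted p = 1.0). CENPA was at 8.53, 8.76 and 8.67 with YK-S and at 8.78, 8.81 and 8.80 with YK-R, a difference of -0.15 (SE 0.26, adjusted p = 1.0). The dim array lay farthest from the YK-R arrays for CENPF and CENPA too. These 4 were the genes without overlap (12% of all features), and the value table gave 0.07, -0.30, -0.10 and -0.03. Under the value table's names 11 of the 43 did not overlap, 10 higher with YK-S and 1 lower, against 7.28% of all features, the widest being BUB1B at 0.76 and TTK at 0.49.

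**Figure D5:**
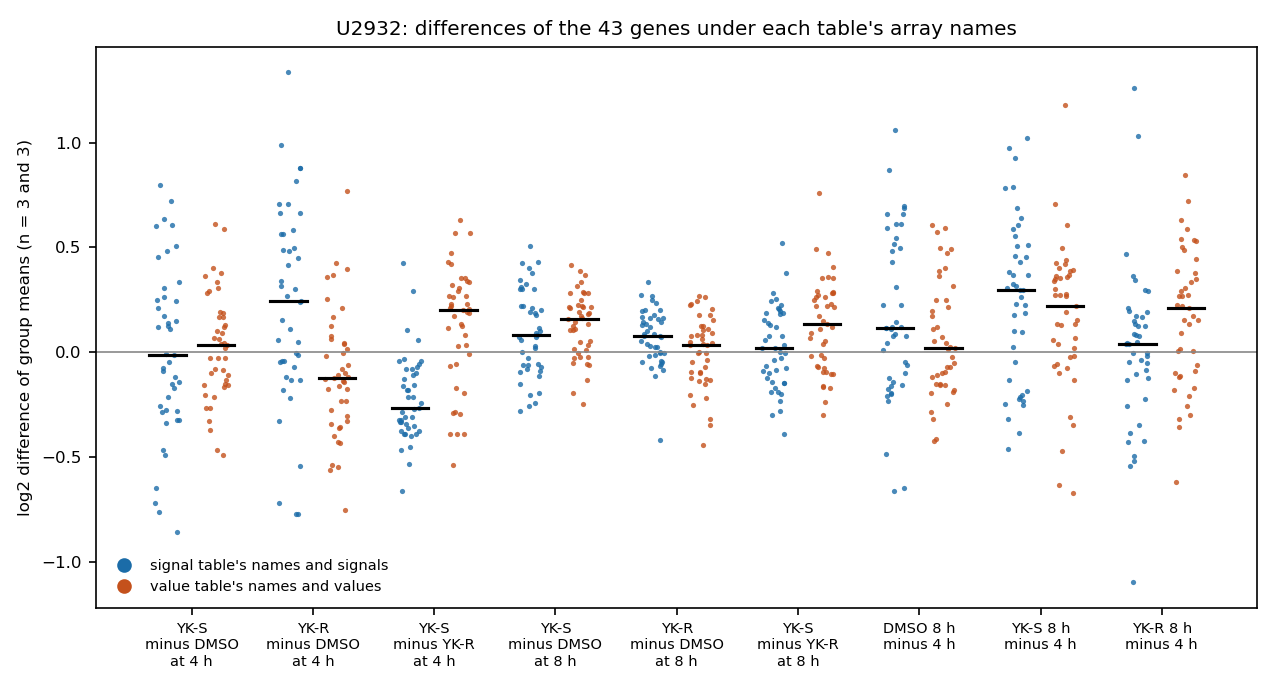
Log2 differences of the 43 genes in U2932 for 9 comparisons, each shown under the signal table's names (blue) and the value table's names (orange), with black bars at the medians. The medians of YK-S minus YK-R at 4 h, -0.27 and 0.20, lie on opposite sides of 0, and those of YK-S at 8 h minus 4 h, 0.30 and 0.22, on the same side.

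With time in U2932, BUB1B, ANLN and TACC3 lay higher at 8 h than at 4 h with YK-S under both namings without overlap, and BUB1B and ANLN were called under the value table's names. The 2 namings share arrays here. The first YK-S array at 8 h of the signal table, a dim one, is the second YK-S array at 8 h of the value table. It was the highest of its group for all 3 genes under both namings. Under the signal table's names no member was called with YK-S (0% of features), the median was 0.30 and 31 of 43 lay above 0, against 0.010 over all features. Under the value table's names 4.1% of features were called, 2 members higher and 1 lower, with a median of 0.22 and 31 above 0. The sign was shared for 39 of the 43 genes. BUB1B was at 8.77, 7.70 and 7.68 at 8 h and 7.13, 7.13 and 6.82 at 4 h, a difference of 1.02 (SE 0.33, adjusted p = 0.246). In the value table BUB1B was at 8.18, 8.67 and 8.02 at 8 h and 7.20, 7.14 and 6.99 at 4 h, a difference of 1.18 (SE 0.18, adjusted p = 0.00236). The groups did not overlap in either. ANLN was at 7.14, 6.11 and 6.11 at 8 h and 5.27, 5.64 and 5.66 at 4 h, a difference of 0.93 (SE 0.34, adjusted p = 0.297). In the value table ANLN was at 6.97, 7.40 and 6.94 at 8 h and 6.68, 6.57 and 6.58 at 4 h, a difference of 0.50 (SE 0.13, adjusted p = 0.0443). NUSAP1, the microtubule bundler, went the other way in the value table, at 10.41, 9.99 and 10.34 at 8 h and 10.63, 11.01 and 11.00 at 4 h, a difference of -0.63 (SE 0.16, adjusted p = 0.0405), against -0.38 under the signal table's names. BUB1 was at 7.44, 7.02 and 7.07 at 8 h and 6.23, 6.11 and 6.27 at 4 h, a difference of 0.98 (SE 0.35, adjusted p = 0.288) and of 0.35 in the value table. NEK2 was at 9.29, 8.99 and 9.04 at 8 h and 8.72, 7.99 and 8.23 at 4 h, a difference of 0.79 (SE 0.36, adjusted p = 0.413) and of 0.61 in the value table. Both kinases lay higher at 8 h without overlap under either naming. TACC3 was at 9.10, 8.31 and 8.78 at 8 h and 7.98, 8.13 and 7.72 at 4 h, a difference of 0.78 (SE 0.25, adjusted p = 0.242) and of 0.71 in the value table. ESPL1, the separase, was at 7.65, 6.92 and 7.13 at 8 h and 6.65, 6.86 and 6.43 at 4 h, a difference of 0.59 (SE 0.34, adjusted p = 0.566) and of 0.39 in the value table. In all 10 of 43 genes did not overlap (21.7% of all features), and 19 of 43 (44.2%) in the value table against 26.8%. Among the regulators the value table called CDKN1A, the p21 inhibitor of cyclin-dependent kinases, lower at 8 h (-1.11, adjusted p = 0.00637) and PKMYT1, an inhibitory kinase of CDK1, higher (0.77, adjusted p = 0.0411), and the signal table's names gave -1.19 and 0.75, neither called. Dim arrays made up 1 of 3 at each time under the signal table's names, and 2 of 3 at 4 h and 1 of 3 at 8 h under the value table's. ANLN was above background on 12 of the 18 U2932 arrays. With DMSO, ANLN was at 5.78, 6.32 and 6.32 at 8 h and 6.14, 4.65 and 5.02 at 4 h. In the value table these were 6.94, 6.88 and 6.85, and 6.67, 6.86 and 6.55. BUB1B with DMSO was at 6.96, 7.92 and 8.00 at 8 h and 7.49, 7.31 and 6.64 at 4 h. In the value table these were 7.96, 7.88 and 7.78, and 7.40, 7.64 and 7.11. No member was called for the change with time of YK-S minus DMSO.

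With YK-R the change with time differed between the tables. Under the signal table's names the median was 0.04 with 23 above 0, no member was called (0% of features), and 15 of 43 did not overlap, against 36.7% of all features. All 3 arrays at 4 h and none at 8 h were dim. BUB1B was at 8.20, 7.57 and 7.82 at 8 h and 6.66, 6.72 and 6.43 at 4 h, a difference of 1.26 (SE 0.33, adjusted p = 0.164) and of 0.13 in the value table. MAD2L1 was at 9.66, 9.89 and 9.99 at 8 h and 10.81, 11.12 and 10.90 at 4 h, a difference of -1.10 (SE 0.31, adjusted p = 0.176) and of -0.17 in the value table. BUBR1 and MAD2, their products, act together in the checkpoint inhibitor, and they lay in opposite directions here. ANLN was at 6.39, 6.21 and 6.19 at 8 h and 5.15, 5.25 and 5.30 at 4 h, a difference of 1.03 (SE 0.34, adjusted p = 0.233) and of 0.17 in the value table. CENPA was at 8.78, 8.81 and 8.80 at 8 h and 9.26, 9.31 and 9.45 at 4 h, a difference of -0.54 (SE 0.26, adjusted p = 0.387) and of 0.02 in the value table. NUSAP1 was at 10.63, 10.59 and 10.71 at 8 h and 11.00, 11.26 and 11.23 at 4 h, a difference of -0.52 (SE 0.22, adjusted p = 0.336) and of -0.36 in the value table. Under the signal table's names CENPA and NUSAP1 were lower on every 8 h array than on any 4 h array, but they and MAD2L1 turned positive under median scaling, which moved the median of all features to 1.21 and called 42 of the 43 and 59% of all features, all higher. NEK2 was at 8.83, 9.03 and 9.45 at 8 h and 8.47, 8.72 and 8.72 at 4 h, a difference of 0.47 (SE 0.36, adjusted p = 0.599) and of -0.26 in the value table. Under the value table's names, where 5.94% of features were called, the median was 0.21 with 30 above 0, and 4 genes were called higher at 8 h. Cyclin A2 (CCNA2) was at 10.19, 9.83 and 9.72 at 8 h and 9.16, 8.78 and 9.64 at 4 h, a difference of 0.72 (SE 0.19, adjusted p = 0.0368). KIF20A was at 8.27, 8.02 and 8.17 at 8 h and 7.44, 7.49 and 7.64 at 4 h, a difference of 0.63 (SE 0.13, adjusted p = 0.0115). AURKB was at 8.76, 8.43 and 8.22 at 8 h and 7.99, 7.56 and 8.11 at 4 h, a difference of 0.59 (SE 0.16, adjusted p = 0.0404). BUB1 was at 7.31, 7.32 and 7.49 at 8 h and 7.0, 6.63 and 6.90 at 4 h, a difference of 0.53 (SE 0.14, adjusted p = 0.0351). None of the 4 overlapped between the times.

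In the DMSO groups, with no compound, no member was called between 4 h and 8 h either, where 0.00585% of features were called, and 1.22% in the value table. The median was 0.11, and 0.02 under the value table's names. NUF2 was at 7.15, 7.68 and 7.71 at 8 h and 6.91, 5.39 and 7.06 at 4 h, a difference of 1.06 (SE 0.38, adjusted p = 0.215) and of 0.39 in the value table. BIRC5, the survivin gene, was at 8.45, 8.78 and 9.02 at 8 h and 7.85, 7.89 and 8.40 at 4 h, a difference of 0.70 (SE 0.22, adjusted p = 0.169) and of 0.57 in the value table. CCNB1 was at 8.05, 8.15 and 8.97 at 8 h and 7.78, 7.53 and 8.03 at 4 h, a difference of 0.61 (SE 0.31, adjusted p = 0.366) and of 0.47 in the value table. These 3 were higher at 8 h without overlap under both namings. TOP2A was at 10.12, 10.22 and 10.15 at 8 h and 10.88, 11.11 and 10.45 at 4 h, a difference of -0.65 (SE 0.20, adjusted p = 0.16) and of -0.15 in the value table. INCENP was at 7.05, 6.64 and 6.91 at 8 h and 7.30, 7.91 and 7.37 at 4 h, a difference of -0.66 (SE 0.23, adjusted p = 0.211) and of -0.12 in the value table. Together 5 of 43 genes did not overlap, against 12.6% of all features. TOP2A and INCENP, lower here with time, are also lower in both compound groups against the same 3 dim DMSO arrays at 4 h. Both turned positive under median scaling, at 1.48 and 0.96, where the median of all features was 1.06, that of the 43 was 1.90 and 39 of the 43 and 44.8% of all features were called, the 39 all higher. Without the third DMSO array at 4 h 3 members and 4.07% of all features were called, and without the first 1 member and 5.72%.

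The difference between the enantiomers was set side by side in the 2 lines in the fit of 30 arrays, averaged over both times and under the signal table's names. It was larger in TMD8 than in U2932 for 36 of 43 genes, with a median of 0.22 against -0.006 over all features, and of -0.21 against -0.25 under median scaling. No member and no feature was called (0% of 20625), with 4 members and 483 features at an unadjusted p under 0.05. CDC20 had the largest difference, at 0.67 (SE 0.29, adjusted p = 1.0), followed by CENPA at 0.47 (SE 0.22, adjusted p = 1.0). The U2932 arrays of this test carry the signal table's names, and it was not run across the lines with the value table. Within each line, the median of YK-S minus YK-R over both times was 0.11 in TMD8 and -0.11 in U2932 under the signal table's names. In the value table these medians were 0.10 and 0.15, so the order of the lines differed between the tables.

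The pair of compounds was compared in 4 settings, 2 lines at 2 times, with p-values adjusted over all features in each, and no member was called in any of them. A p that misses the threshold does not show that YK-S and YK-R act alike. The 95% intervals of the 43 genes in TMD8 reached from -0.73 (NUF2) to 0.98 (CDC20) at 4 h and from -0.42 (AURKB) to 1.0 (CDC20) at 8 h. In U2932 under the signal table's names they reached from -1.48 (TPX2) to 1.12 (BUB1B) at 4 h and from -1.05 (TPX2) to 1.28 (FOXM1) at 8 h. Averaged over both times in U2932 the medians were -0.11 for YK-S minus YK-R, 0.06 for YK-S minus DMSO and 0.16 for YK-R minus DMSO, with no member or feature called (0%). Under the value table's names they were 0.15, 0.06 and -0.06, also with none called (0%). The change with time of the difference from DMSO had a median of 0.08 for YK-S and -0.14 for YK-R, again with none called (0%), and of 0.14 and 0.10 under the value table's names.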

How the data were processed

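RNA was labelled as biotinylated cRNA and hybridised to Illumina bead arrays, per the labels' protocols, and the submitters' processing notes name GenomeStudio, with no version. The deposited signal table holds the intensity of each of 47231 probes on 30 arrays with no normalization found in the values, and the deposited value table holds log2 values of the same arrays, normalized by the authors by a method not given in the sources used here, with a detection p-value per probe. No column was left unused for want of a sample. The value table could be set against the signal table array by array, with a lowest best rank correlation of 0.99996, and this is how the U2932 names were found to differ. Gene symbols came from the platform annotation: 30113 probes had 1 symbol, 8 several and 17110 none, and 30074 were matched to RefSeq symbols.

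Because the signal table has neither detection p-values nor control probes, neqc could not be used. Background was estimated on each array from the signals below the mode of the log2 density, corrected with normexp and an offset of 16, quantile-normalized over the 30 arrays and taken to log2. A detection p-value was computed for each probe from this estimated background, and the deposited detection p-values were not used for it. A probe counted as above background at a computed p-value under 0.05. It was kept in a line when it was so on all arrays of at least 1 group. The brightest kept probe stood for a gene, and unnamed probes stayed as features (19284 in TMD8, 17083 in U2932). Differences of group means were tested with limma's lmFit and eBayes, two-sided, within each line (8 and 12 residual degrees of freedom), with Benjamini-Hochberg adjustment over all features in each of 22 comparisons. The 2 comparisons between lines used all 30 arrays. Precision is limited by how many arrays there are.

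The 43 genes and the 11 other lists (180 genes) were chosen with earlier results of these data known. Values per array are given for each called member and, where fewer than 6 were called, for the members with the largest differences whose groups did not overlap, up to 6 per comparison. Regulators may be named always and other list genes where called, at most 5 per comparison. R 4.3.3, limma 3.58.1, Python 3.11.15, pandas 2.3.3, numpy 2.4.6 and matplotlib 3.10.9 were used. Alternatives were median scaling, quantile normalization within each line, plain normexp with offset 50, 1 fit of 30 arrays, the value table, other probe filters, array weights, eBayes with trend and robust, the mean of all kept probes and leaving out each array.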

Additional observations from a re-analysis of the deposited data

How the results depend on the processing

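No paired analysis was run, because the labels give no replicate numbers and arrays were numbered by accession order. In that order the TMD8 arrays run through all TMD8 groups in turn. Whether arrays of the same number belong together is not known. If they do, the spread between such sets is part of the error in these tests and of the overlap between groups. No member was called in TMD8 under any alternative, and 29 to 31 were called between the lines under the alternatives other than the 2 scalings and the 8 h groups, or 30 to 33 when 1 array was left out. Of all features, 5528 to 18793 were called between the lines over the settings, which differ in the features tested. When 1 array was left out, 11154 to 12887 were. Over all alternatives, values of named members kept direction and side of the threshold in 1866 cases, passed it newly in 49, lost it in 15 and changed sign in 44.

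Median scaling and quantile normalization within each line turned the 4 members called lower in TMD8 positive, at 1.23 and 1.61 for CDC25B, 0.93 and 1.31 for TACC3, 1.04 and 1.43 for NUSAP1, and 0.52 and 0.92 for PTTG1, and brought the median of the 43 to 2.06 and 2.5. These scalings assume other brightness distributions, and the cause was not tested. In TMD8, median scaling gave medians of 0.42 for YK-S minus YK-R at 8 h, -0.39 for YK-R with time and 0.43 for the difference between the changes with time. In U2932 it gave medians of 1.17, -0.12 and 0.52 for YK-S minus DMSO (4 h, 8 h and their mean), 1.03, -0.19 and 0.39 for YK-S minus YK-R, 0.62 for YK-S with time and -1.24 for the change with time of YK-S minus DMSO. DMSO with time had a median of 1.90 and 39 called among 44.8% of all features, YK-R with time 1.94 and 42 among 59%, and YK-R minus DMSO at 4 h 0 called among 0%, and the difference between the lines in YK-S minus YK-R had a median of -0.21. Members of changed sign under median scaling were TOP2A (0.66), TACC3 (0.61), INCENP (0.42), CDC20 (1.17) and HMMR (1.13) for YK-S minus DMSO at 4 h. For YK-S minus YK-R at 4 h they were BUB1 (0.52), AURKA (0.98), HMMR (0.96), TPX2 (0.97) and CCNA2 (1.05), for DMSO with time INCENP (0.96) and TOP2A (1.48), and for YK-R with time MAD2L1 (0.84), CENPA (1.45) and NUSAP1 (1.44).

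The value table with its names changes names and normalization together. It turned TOP2A (0.21), NUF2 (-0.12), CDC25C (-0.080), KIF23 (-0.43) and INCENP (0.36) for YK-R minus DMSO at 4 h, where 2 were called among 1.93% of all features with a median of -0.12, and MAD2L1 (0.064) at 8 h. It turned KIF2C (0.010) for YK-S minus DMSO at 8 h, and BUB1 (0.36), BUB1B (-0.28), AURKA (0.22), HMMR (0.20), TPX2 (0.63) and CCNA2 (0.57) for YK-S minus YK-R at 4 h, with a median of 0.20. It turned CENPA (0.017) and NEK2 (-0.26) for YK-R with time, where 4 were called among 5.94% of all features, while 3 were called among 4.1% for YK-S with time. Its medians were -0.059 for YK-R minus DMSO over both times, 0.15 for YK-S minus YK-R over both times and 0.10 for the change with time of YK-R minus DMSO. Without dim arrays, chosen after seeing the data, it called 16 for YK-S with time (9.16% of all features) and gave KIF2C 0.19 for YK-S minus DMSO at 8 h, and MAD2L1 -0.089, CDC20 0.0050, CENPF 0.044 and CENPA 0.14 for YK-S minus YK-R at 8 h.

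With 1 fit of 30 arrays, 3 members were called for YK-S minus DMSO at 4 h (6.48% of all features), 7 for YK-R minus DMSO at 4 h (16.4%), 1 for DMSO with time (4.37%) and 2 for YK-R with time (2.6%). Array weights, whose estimation stopped before its tolerance in some fits, called 0 for YK-R minus DMSO at 4 h (0% of all features), 8 for YK-S minus YK-R at 4 h (11.3%), 28 for YK-S with time (39.1%) and 4 for YK-R with time (19.1%), and gave a median of -0.15 for YK-S minus DMSO over both times. For YK-R minus DMSO at 4 h, 0 were called with probes above background on every array (0% of all features) and 2 with the mean of all kept probes (2.98%), which also turned CENPA (0.046) for YK-S minus YK-R at 8 h. Leaving out 1 array called 0 to 5 members for YK-S minus DMSO at 4 h, 0 to 12 for YK-R minus DMSO at 4 h and 0 to 3 for DMSO with time, the highest each time without the third DMSO array at 4 h, where 18.1%, 29.3% and 4.07% of all features were called. The median of the change with time of YK-R minus DMSO ran from -0.31 to 0.093, positive without the second DMSO array at 4 h. FOXM1 was above background on 17 and ANLN on 12 of the 18 U2932 arrays.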
